A study of Mauremys reevesii with 3 samples.

Results

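The miR-148 and miR-152 microRNAs were described in small RNA libraries of embryonic Mauremys reevesii, the Chinese pond turtle, whose sex depends on egg temperature. Eggs were incubated at 26, 29 or 32 °C until Greenbaum stage 16, when the embryonic gonad becomes responsive to temperature, and adrenal, kidney and gonad were collected as 1 complex. Cool incubation gives mostly males in this species and warm incubation mostly females. Each temperature had 1 library, made from pooled RNA of 3 biological samples, so no difference below has a replicate check and no p-value is given. Members were found by name, as every row called miR-148 or miR-152 with any letter or arm, which gave 21 of the 1743 rows of the count table, 14 named miR-148 and 7 named miR-152. The family was chosen by its read counts in these same libraries, so its high level is a description. The 4 main rows were ggo-miR-148a, hsa-miR-148a-3p, gga-miR-148a-5p and ggo-miR-148b, where the prefix tells which species the reference entry came from (gorilla, human, chicken).

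A microRNA (miRNA) is cut from a hairpin precursor whose arms, 5p and 3p, each give a short RNA, and usually one arm is loaded into the silencing complex while the other is degraded. The loaded strand finds messenger RNAs mainly through its seed, bases 2 to 8. The 3p strands of miR-148a, miR-148b and miR-152 share a seed. In human cells they repress messenger RNAs of DNA methyltransferases, and in mouse liver miR-148a represses the LDL receptor. In mammals miR-148b and miR-152 lie in introns of the related genes COPZ1 and COPZ2. No genome was used here, so no coordinates are given.

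The sequences below are shown because they define how the members differ, with the seed in capitals and bases written 5′ to 3′ as the table lists them.
hsa-miR-148a-3p: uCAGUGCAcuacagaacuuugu
rno-miR-148b-3p: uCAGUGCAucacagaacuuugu
dre-miR-148: uCAGUGCAuuacagaacuuugu
dre-miR-152: uCAGUGCAugacagaacuuugg
fru-miR-152: uCAGUGCAuaacagaacuuugu
gga-miR-148a-5p: aAAGUUCUgugacacucagacu
Counted from 1 at the 5′ end, rno-miR-148b-3p differs from hsa-miR-148a-3p by C9U and U10C, just past the seed. The zebrafish-named dre-miR-148 lies a single base from each of them, by C9U from miR-148a and by C10U from miR-148b. The pufferfish-named fru-miR-152 differs from miR-148b by C10A alone. Zebrafish-named dre-miR-152 differs from miR-148b by C10G and, at the 3′ end, by U22G. Of the 21 rows, 14 were 3p strands and 7 were 5p strands.

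Several rows repeated one another. The rows hsa-miR-148a-3p and ggo-miR-148a, which lacks the last base, had identical counts in every library, and so did rno-miR-148b-3p and ggo-miR-148b. In all, 12 of the 21 rows had the counts of another family row, leaving 15 distinct sets of counts. Joining rows that share 16 consecutive bases on either strand left 8 sequence groups, 5 of 3p strands and 3 of 5p strands. The most counted row of a group stands for it below. Another 3 rows of the table, of other names, shared 16 bases with a family row. One of them, the cattle-named bta-miR-2957, is ccaaguucugucaugcacuga, shown because its reverse complement, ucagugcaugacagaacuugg, is the strand of mmu-miR-152-3p. It had 527, 583 and 500 counts at 26, 29 and 32 °C, the same as mmu-miR-152-3p although it lies on the opposite strand. The predicted entry novel_6 has the sequence of rno-miR-148b-3p but only 5, 3 and 1 counts.

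The 3p strand of miR-148a was the most counted molecule at every temperature. ggo-miR-148a had 603972, 530316 and 546351 counts in the 26, 29 and 32 °C libraries, out of table totals of 9348882, 9624436 and 9613861. Intervals here and below are exact 95% intervals and cover counting error only. They leave out variation between samples and between libraries. They also treat every read as a separate molecule, which reads copied by PCR are not. In the order 26, 29 and 32 °C, its share of the table was 6.46% (6.44% to 6.48%), 5.51% (5.50% to 5.52%) and 5.68% (5.67% to 5.70%). The table total includes rows that repeat one another, so this is not its share of the reads. With 1 row per sequence group in the total, the share was 20.3%, 17.5% and 18.3%. The 26 °C library was the highest and the 29 °C library the lowest, and none of the intervals overlapped.

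Its lead over the next molecule was narrower in the warmer libraries. The ratio of miR-148a to miR-10a (hsa-miR-10a-5p), the runner-up, which is encoded in a Hox gene cluster, was 1.21, 1.06 and 1.08 at 26, 29 and 32 °C. Against miR-10b (mmu-miR-10b-5p) it was 1.37, 1.16 and 1.09. These ratios are taken within a library and do not depend on scaling between libraries. The log2 odds ratio of miR-148a against miR-10a was -0.17 (-0.17 to -0.16) for 32 over 26 °C, -0.20 (-0.21 to -0.19) for 29 over 26 °C and 0.03 (0.02 to 0.04) for 32 over 29 °C. Against miR-10b it was -0.33 (-0.34 to -0.33), -0.25 (-0.26 to -0.24) and -0.09 (-0.09 to -0.08) for the same pairs.

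**Figure D1:**
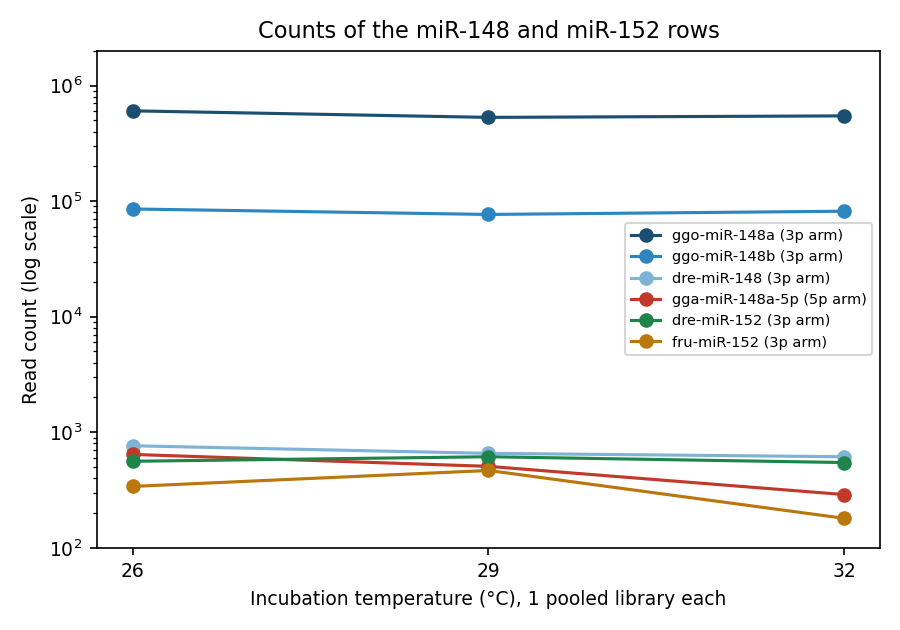
Read counts (log scale) of the most counted row of 6 miR-148 and miR-152 sequence groups against incubation temperature, 1 pooled library per point with no error bar. miR-148a (603972, 530316 and 546351 counts) and miR-148b (85511, 76665 and 81769) lie far above the other rows. Each of those other rows has its lowest unscaled count at 32 °C, most clearly the 5p strand of miR-148a and fru-miR-152. With counts scaled by trimmed-mean (TMM) factors, dre-miR-148 and dre-miR-152 were not lowest at 32 °C.

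Summed by seed, however, the miR-148 family came after the miR-10 family. With 1 row per sequence group, the miR-148 seed took 691148, 608719 and 629461 counts in the 26, 29 and 32 °C libraries, or 23.3%, 20.1% and 21.1% of the sequence-group totals. The miR-10 seed took 1167570, 1218323 and 1282769 counts, or 39.3%, 40.2% and 42.9%. The name "most counted family" therefore holds for the single strand miR-148a-3p and not for its seed. The ratio of the miR-148 seed to the miR-10 seed was 0.592, 0.4996 and 0.491 in that order, with a log2 odds ratio of -0.27 (-0.28 to -0.26) for 32 over 26 °C. Of the 973 sequence groups, miR-148a ranked 1 in each library and miR-148b ranked 7, 8 and 7 at 26, 29 and 32 °C.

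**Figure D2:**
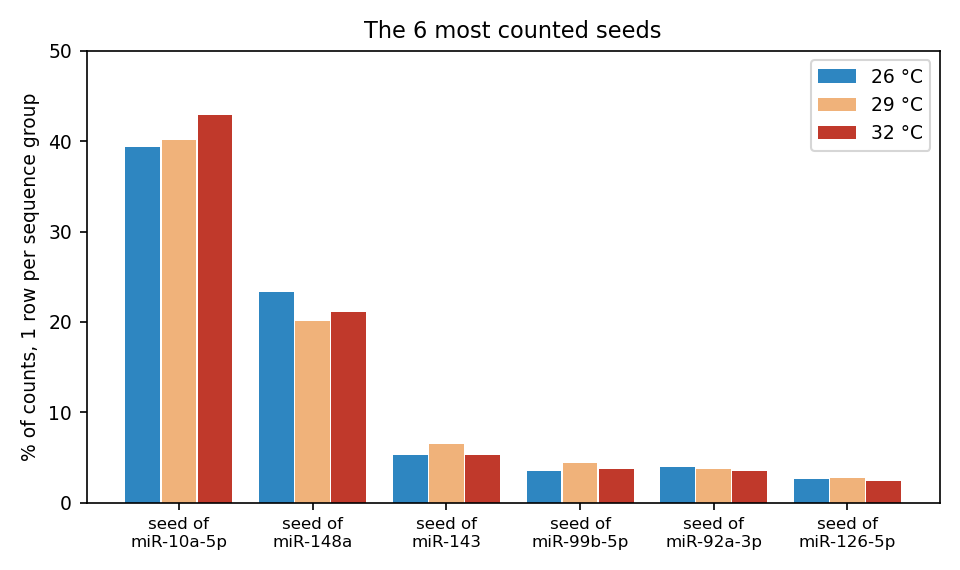
Share of the counts, with 1 row per sequence group, taken by the 6 most counted seeds, each labelled by its most counted row, with 1 bar per pooled library and no error bars. The miR-10 seed stands at 39.3%, 40.2% and 42.9% and the miR-148 seed at 23.3%, 20.1% and 21.1%. The seed of miR-126-5p comes from oha-miR-126-5p, which shares 16 bases with bta-miR-126-3p on the opposite strand. These 2 rows had 77871 and 77218 counts at 26 °C, against 3496 for mmu-miR-126a-5p. Which strand the reads came from was not tested.

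The paralog miR-148b followed miR-148a closely. ggo-miR-148b had 85511, 76665 and 81769 counts at 26, 29 and 32 °C, again highest at 26 °C and lowest at 29 °C. It stood at 14.2%, 14.5% and 15.0% of miR-148a, a ratio slightly higher in each warmer library. The log2 odds ratio of miR-148b to miR-148a was 0.08 (0.07 to 0.09) for 32 over 26 °C, 0.03 (0.02 to 0.05) for 29 over 26 °C and 0.05 (0.03 to 0.07) for 32 over 29 °C. Within the shared seed, miR-148a made up 87.4%, 87.1% and 86.8% of the counts in the same order. miR-148b made up 12.4%, 12.6% and 13.0%.

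Between libraries, both paralogs differed by far less than 2-fold. On the table total, the log2 ratio of ggo-miR-148a was -0.18 (-0.19 to -0.18) for 32 over 26 °C, -0.23 (-0.23 to -0.22) for 29 over 26 °C and 0.04 (0.04 to 0.05) for 32 over 29 °C. For ggo-miR-148b the values were -0.10 (-0.12 to -0.09), -0.20 (-0.21 to -0.19) and 0.09 (0.08 to 0.11). Any 2 of these comparisons share a library. With trimmed-mean (TMM) factors the 32 over 26 °C ratio changed sign for both paralogs, to 0.029 (0.024 to 0.035) for miR-148a and 0.11 (0.10 to 0.12) for miR-148b, so no direction is drawn for that pair. The 29 over 26 °C ratio kept its sign under every scaling run, between -0.29 and -0.21 for miR-148a. Median log2 ratios over all rows tested were -0.13 for 32 over 26 °C, 0.00064 for 29 over 26 °C and -0.18 for 32 over 29 °C, and TMM moved them to 0.09, 0.02 and 0.02.

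Against other abundant molecules, most of them far below it in counts, the 29 over 26 °C ratio of miR-148a was toward the low end. Among the 27 sequence groups, both paralogs included, with at least 1000 CPM (the count scaled to the table total) in every library, 3 had a lower log2 ratio than miR-148a for 29 over 26 °C, where the median was 0.02 and the range -0.33 to 0.53. For 32 over 26 °C, 5 of the 27 were lower, with a median of -0.02. For 32 over 29 °C, 20 of the 27 were lower, with a median of -0.13. miR-148b had 4, 9 and 22 groups below it for 29 over 26 °C, 32 over 26 °C and 32 over 29 °C.

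The 5p strand of miR-148a, the strand that is usually degraded, differed most between temperatures among the 4 main rows. gga-miR-148a-5p had 643, 507 and 289 counts at 26, 29 and 32 °C, lower in each warmer library. The log2 ratio was -1.19 (-1.40 to -0.99) for 32 over 26 °C, -0.81 (-1.02 to -0.60) for 32 over 29 °C and -0.38 (-0.56 to -0.21) for 29 over 26 °C. With TMM factors the first of these was -0.98 (-1.19 to -0.78), just under 2-fold. Fewer cells that make the strand and less of it per cell cannot be told apart in pooled tissue.

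Within the hairpin, the 5p strand was lowest relative to the 3p strand in the warmest library. The 5p counts were 0.106%, 0.0956% and 0.0529% of the 3p counts at 26, 29 and 32 °C. The log2 odds ratio, which does not depend on scaling between libraries, was -1.01 (-1.21 to -0.81) for 32 over 26 °C and -0.85 (-1.07 to -0.64) for 32 over 29 °C. It was -0.16 (-0.33 to 0.02) for 29 over 26 °C, an interval that includes equality. The 29 °C library thus lay near 26 °C and the 32 °C library apart from both.

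Among hairpins with enough counts on both arms to compare, that of miR-148a was one of the most one-sided. Rows named as the 5p and 3p arms were compared in 48 hairpins, those where both arms reached 30 counts summed over the libraries. Of these, 1 had a smaller share of its minor arm at 26 °C and at 29 °C, and 0 at 32 °C. The minimum of 30 counts leaves out hairpins with a scarcer minor arm, the paralog miR-148b among them. There aca-miR-148b-5p had 1, 5 and 3 counts against 85511, 76665 and 81769 for ggo-miR-148b. The median share of the minor arm was 5.55%, 4.71% and 4.09% at 26, 29 and 32 °C. The arm ratio was at least 2-fold apart, with an interval off equality, in 6 of the 48 (12.5%) for 32 over 26 °C, miR-148a included. With all rows of each arm summed, the log2 odds ratio of miR-148a was -0.98 (-1.18 to -0.78), under 2-fold, and that call ended. An arm ratio was that far apart in 1 hairpin (2.08%) for 29 over 26 °C and in 1 (2.08%) for 32 over 29 °C, miR-148a in neither. The other 5 hairpins for 32 over 26 °C were let-7c, miR-15c, miR-24, miR-122 and miR-301a. miR-122 was also the 1 for 29 over 26 °C, and miR-15c the 1 for 32 over 29 °C. In let-7c, miR-15c, miR-24 and miR-122 the minor arm was the lower at 32 °C, as in miR-148a, and in miR-301a it was the higher. Over all 48 hairpins the minor arm was relatively lower in 32, higher in 15 and equal in 1, miR-203b, for 32 over 26 °C. The median log2 was -0.13, and 4 hairpins had a lower value than miR-148a. The 48 are not all separate arm comparisons. In miR-126 and miR-203b the named arms share 16 bases on opposite strands. Without them 46 hairpins remained, 6 of them at least 2-fold apart for 32 over 26 °C. Their minor arm was lower in 31 and higher in 15. Nor are these 46 all separate. miR-199a and miR-199b had the same 46389 counts of the 3p arm at 26 °C. In that library the minor 5p arm of miR-126a had 3496 counts and the major 3p arm of miR-126b had 3489. The 5p arm of miR-214 and the 3p arm of miR-3120 each had 139.

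**Figure D3:**
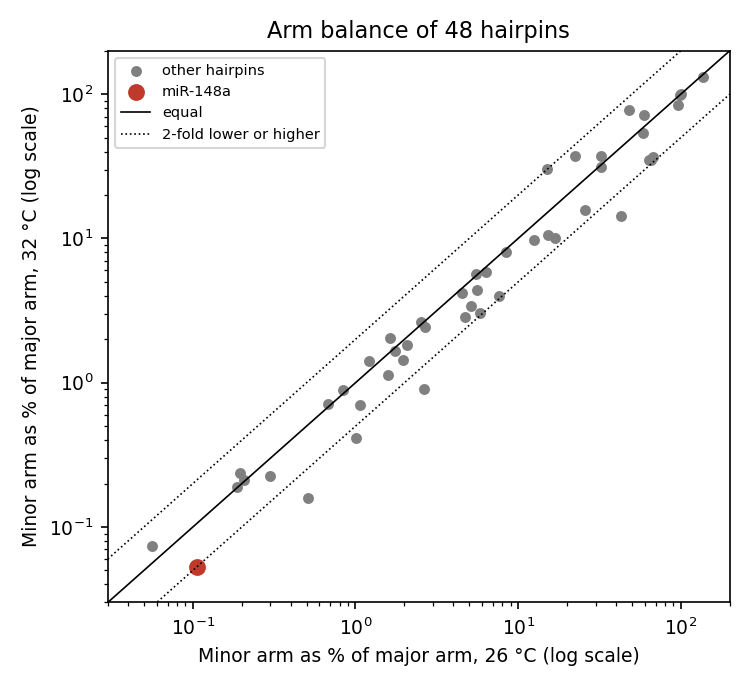
Minor arm as a percentage of the major arm in the 32 °C library against the 26 °C library (both axes log scale), 1 point per hairpin, for 48 hairpins with at least 30 counts on each arm, without error bars. miR-148a (red) lies at 0.106% and 0.0529%, on the dotted line that marks a 2-fold lower share, at the low end of both axes.

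The remaining 5p rows were at or near the detection limit. The lizard-named aca-miR-148a-5p, which differs from gga-miR-148a-5p by A18G, had 7, 3 and 7 counts at 26, 29 and 32 °C. aca-miR-148b-5p had 1, 5 and 3 counts, and both rno-miR-148b-5p and hsa-miR-148b-5p had 1, 2 and 1. mdo-miR-148-5p had a single count at 29 °C, and tgu-miR-148-5p had 2 counts at 32 °C. Counts of 3 or fewer in both libraries of a pair give no fold. All 6 of these rows stayed under 10 counts in every library, so 15 of the 21 family rows could enter the ratio step, which required 10 counts in either library of a pair.

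miR-152 itself was scarce. dre-miR-152 had 561, 614 and 547 counts at 26, 29 and 32 °C, and mmu-miR-152-3p had 527, 583 and 500. The latter is 21 bases long against 22, and aligned from the 5′ end without gaps it differs by U20G. For 32 over 26 °C, the log2 ratio of dre-miR-152 was -0.08 (-0.25 to 0.10). It was 0.09 (-0.08 to 0.26) for 29 over 26 °C and -0.17 (-0.33 to 0.003) for 32 over 29 °C. All 3 of its intervals include equality, while that of mmu-miR-152-3p for 32 over 29 °C, at -0.22 (-0.40 to -0.05) on the table total, does not. dre-miR-152 made up 0.0812%, 0.101% and 0.0869% of the counts with the shared seed at 26, 29 and 32 °C. Against miR-148a it was relatively higher at 29 than at 26 °C, with a log2 odds ratio of 0.32 (0.15 to 0.49), and lower at 32 than at 29 °C, at -0.21 (-0.38 to -0.04).

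Some rows close in sequence to the paralogs took another course. fru-miR-152 had 340, 467 and 180 counts at 26, 29 and 32 °C, highest at 29 °C where both paralogs were lowest. Its log2 ratio was -1.37 (-1.63 to -1.12) for 32 over 29 °C, -0.96 (-1.23 to -0.69) for 32 over 26 °C and 0.42 (0.21 to 0.62) for 29 over 26 °C. Relative to miR-148b, from which it differs by C10A, it stood at 0.398%, 0.609% and 0.220% at 26, 29 and 32 °C. The log2 odds ratio of the 2 rows was -1.47 (-1.73 to -1.22) for 32 over 29 °C. The salmon-named ssa-miR-152-3p, the same sequence without its last base, had only 8, 10 and 4 counts, unlike the rows of miR-148a and miR-148b, where the shorter and longer versions had equal counts.

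dre-miR-148 had 764, 657 and 614 counts at 26, 29 and 32 °C, which was 0.893%, 0.857% and 0.751% of miR-148b. Relative to miR-148b its log2 odds ratio was -0.25 (-0.41 to -0.09) for 32 over 26 °C and -0.06 (-0.21 to 0.09) for 29 over 26 °C. The snake-named oha-miR-148a-3p, which differs from hsa-miR-148a-3p by G21C, had 1023, 1183 and 1050 counts. It stood at 0.169%, 0.223% and 0.192% of miR-148a, with a log2 odds ratio of 0.40 (0.28 to 0.52) for 29 over 26 °C. Whether such rows are transcripts of their own or reads of a paralog with a base difference was not tested.

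**Figure D4:**
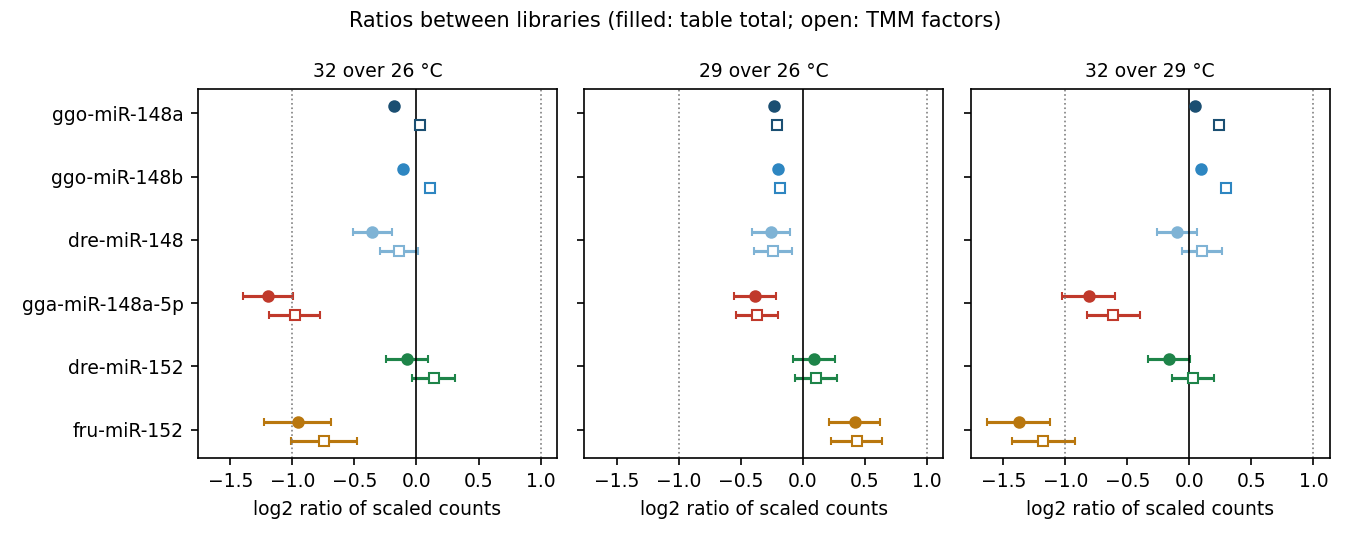
Log2 ratio between libraries of the most counted row of 6 sequence groups, one panel per pair of libraries, scaled by the table total (filled circles) or TMM factors (open squares), with exact 95% intervals of counting error. Dotted lines mark 2-fold. gga-miR-148a-5p (-1.19) for 32 over 26 °C and fru-miR-152 (-1.37) for 32 over 29 °C are past it on the table total. ggo-miR-148a, ggo-miR-148b and dre-miR-152 cross 0 between scalings for 32 over 26 °C, and dre-miR-148 and dre-miR-152 do for 32 over 29 °C.

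Counted over the family rows that entered the ratio step, 1 of 14 was called for 32 over 26 °C, lower at 32 °C, where called means at least 2-fold apart with an interval off equality. That row was gga-miR-148a-5p. Over all 814 rows of the table, 17.7% were called and 13.3% were called lower. For 29 over 26 °C, 0 of 15 family rows were called, against 10.8% of 812 rows. For 32 over 29 °C, 1 of 15 was called, lower, which was fru-miR-152, against 12.4% of 807 rows called and 9.67% called lower. Family medians were -0.12, 0.09 and -0.17 for 32 over 26 °C, 29 over 26 °C and 32 over 29 °C, taken over rows that repeat one another. All 14 family rows were below equality for 32 over 26 °C on the table total, a direction that TMM factors turn for every 3p row of miR-148a and miR-148b and every row of miR-152 other than fru-miR-152.

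Few other rows carried the seed. Of the 1743 rows, 14 (0.803%) had CAGUGCA at bases 2 to 8, of which 13 carried family names and the other was novel_6. In miRNAs such as miR-130, miR-301 or miR-454, bases 2 to 7 (AGUGCA) equal bases 3 to 8 of miR-148a-3p, a match found in 24 rows (1.38%). The most counted of these, aca-miR-130b-3p, had 17364, 16191 and 14313 counts at 26, 29 and 32 °C, lower in each warmer library. Its log2 ratio was -0.32 (-0.35 to -0.29) for 32 over 26 °C and -0.14 (-0.17 to -0.11) for 29 over 26 °C. dre-miR-454b had 7065, 7091 and 6564 counts, and the predicted entry novel_32 had 830, 929 and 812.

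The molecule closest in course to miR-148a was its paralog. Likeness was the Euclidean distance between centred log2 CPM values over the 3 libraries, among sequence groups with at least 100 CPM in each. Of 60 groups, the nearest to miR-148a was miR-148b, at a distance of 0.06. Next came hsa-miR-101-3p at 0.09, with 51744, 49122 and 49997 counts, and oan-miR-460-5p at 0.09, with 1727, 1625 and 1698. hsa-miR-103a-3p followed at 0.10 and mmu-miR-194-5p at 0.11. Nearest to the 5p strand, among 61 groups, was the predicted entry novel_795 at 0.18, with 3065, 2817 and 1602 counts. Then came hsa-miR-145-3p at 0.26, hsa-miR-363-5p at 0.41, ola-miR-192-5p at 0.42 and aca-miR-425-5p at 0.43. These profiles rest on 3 libraries and share their depth and scaling.

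The libraries also differed in miRNAs that mark tissues, given here per sequence group. The gonad miRNA miR-202 summed to 7598, 9930 and 3177 counts at 26, 29 and 32 °C. The kidney list (miR-192, miR-194 and miR-30a) summed to 45527, 38867 and 32160, of which ola-miR-192-5p gave 38237, 31766 and 25229. The complex thus held markers of both organs. The liver miRNA miR-122, 2 groups, had 5686, 1416 and 1687 counts, highest at 26 °C and lowest at 29 °C, as the counts of miR-148a were. The sizes were unlike. For 32 over 26 °C the log2 ratio on the table total was -1.78 for cgr-miR-122 and -0.18 for ggo-miR-148a, which TMM factors turned to 0.029. For 29 over 26 °C the table-total values were -2.04 and -0.23, and for 32 over 29 °C they were 0.25 and 0.04. miR-148a is itself abundant in mammalian liver, and the part of liver RNA in its values was not tested. The pancreas list summed to 1597, 876 and 808 over 4 groups, and the erythroid list to 49, 20 and 28 over 3. The leukocyte list summed to 580, 1167 and 557 over 5 and the striated muscle list to 1433, 1131 and 1055 over 6. The mesenchyme list summed to 268560, 329569 and 276725 and the endothelial miR-126 to 81367, 85119 and 73982. The neural list had 1, 0 and 2 counts. The list of widely expressed miRNAs, led by hsa-miR-101-3p, summed over 8 groups to 75268, 72004 and 72316 counts. Most of these were of hsa-miR-101-3p and hsa-miR-103a-3p (51744 and 23278 at 26 °C), both among the 5 nearest to miR-148a by pattern. The kidney, pancreas, erythroid, striated muscle and widely expressed lists were also highest at 26 °C. Of these, the erythroid and widely expressed lists were lowest at 29 °C, as liver and miR-148a were. The kidney, pancreas and striated muscle lists were lowest at 32 °C. The orders given here are of counts not rescaled by TMM factors. Highest at 29 °C were the gonad, mesenchyme, leukocyte and endothelial lists.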

How the data were processed

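Small RNA from the adrenal-kidney-gonad complex was sequenced in 3 libraries, 1 per temperature, each from RNA pooled over 3 biological samples per the labels' protocols. The deposited table held raw read counts per row, and beside them TPM, per the file headers. Each deposited TPM lay within 0.01% of the count over its column total. The submitters' processing notes name FastQC and Bowtie. Not given in the sources used here were the genome build, the mismatches allowed and the handling of reads with several matches.

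Ratios between libraries used CPM on the table total (1 count was 0.107, 0.104 and 0.104 CPM at 26, 29 and 32 °C) with a 95% exact conditional (Clopper-Pearson) interval of the 2 counts. Ratios within a library were compared by Fisher's conditional odds ratio with its exact interval. Rows sharing 16 bases on either strand formed a sequence group (single linkage), with totals of 2969285, 3033734 and 2989977. Arms were paired by miRNA name, using the most counted row of each, and hairpins with the same pair of sequence groups were counted once. Simulated counts with known differences were used to count how many rows with and without a planted difference were called. Neither the coverage of the intervals nor the odds ratios were checked in this way.

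Named miRNAs were all family rows, rows with the family's seed, the 5 nearest by pattern to miR-148a-3p and to its 5p strand, the most abundant sequence groups, hairpins past 2-fold and the marker lists. The sum over the miR-10 seed, the rows named for the offset seed and the odds ratios of fru-miR-152, dre-miR-148 and oha-miR-148a-3p were chosen after their values were seen. The members and lists were chosen with earlier results of these data known. Software was Python 3.11.15, numpy 2.4.6, pandas 2.3.3, scipy 1.17.1, matplotlib 3.10.9 and R 4.3.3, with edgeR 4.0.16 (TMM) and DESeq2 1.42.0 (size factors) used only as alternative scalings of the counts.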

Additional observations from a re-analysis of the deposited data

How the results depend on the processing

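No paired analysis was possible because every group held a single library. Alternatives were other scalings, count minimums, interval rules, a pseudocount of 1 CPM, the deposited TPM, and other rows or sums standing for an arm or paralog. The totals of abundant groups without the family, the hairpins without antisense arms and the sums over all rows of a seed were added after seeing the data. In the pair 32 over 26 °C, TMM factors turned the log2 ratio of ggo-miR-148a to 0.029, of ggo-miR-148b to 0.11 and of dre-miR-152 to 0.14, and left dre-miR-148 at -0.14 (-0.30 to 0.01), an interval that reached equality. DESeq2 size factors turned ggo-miR-148b to 0.058 and dre-miR-152 to 0.086, with ggo-miR-148a at -0.022. For 32 over 29 °C, TMM turned dre-miR-152 to 0.032 and dre-miR-148 to 0.10, and size factors turned dre-miR-148 to 0.055. The rows of miR-152 other than fru-miR-152 and ssa-miR-152-3p were also summed, which counts reads again. Their sum gave log2 ratios of -0.10, 0.10 and -0.20 for 32 over 26, 29 over 26 and 32 over 29 °C, with intervals off equality. The sum of fru-miR-152 and ssa-miR-152-3p, kept apart, gave -0.96, 0.41 and -1.37 for the same pairs.

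The 1 family row called for 32 over 26 °C became 0 with TMM factors and 0 when the whole interval had to lie beyond 2-fold. The share of ggo-miR-148a was 20.3%, 17.5% and 18.3% of the sequence-group totals at 26, 29 and 32 °C, and 6.48% and 5.53% of named rows at 26 and 29 °C. Over all rows, the miR-148 seed took 14.8%, 12.7% and 13.1% of the table. At 100 counts per arm, 0 hairpins were apart for 29 over 26 °C. With 14 or 18 shared bases, 3 rows of other names overlapped the family, as with 16. The family formed 8 sequence groups at 14 and 10 at 18 shared bases, and all rows formed 915 and 1048, against 973 at 16. With all rows of an arm summed, the strand log2 odds ratio for 32 over 26 °C was -0.98 (-1.18 to -0.78), so miR-148a was no longer 2-fold apart. It was -0.82 (-1.03 to -0.61) for 32 over 29 °C, and for 29 over 26 °C the interval included equality as before. The paralog odds ratios with summed rows were 0.08, 0.03 and 0.05 for 32 over 26 °C, 29 over 26 °C and 32 over 29 °C. Taking the human-named 3p row changed nothing by construction, since its counts are identical. With 3 libraries the intervals show counting error only, and the 5p strand, at 289 to 643 counts, carries the widest of the main rows.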

Other observations

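Within a library, miR-148a was set beside widely expressed miRNAs of lower abundance. It stood at 11.7, 10.8 and 10.9 times hsa-miR-101-3p at 26, 29 and 32 °C. The log2 odds ratio was -0.10 (-0.11 to -0.08) for 32 over 26 °C, -0.11 (-0.13 to -0.09) for 29 over 26 °C and 0.018 (-0.001 to 0.036) for 32 over 29 °C. Relative to hsa-miR-103a-3p it stood at 25.9, 23.5 and 24.7 times, highest at 26 °C in both cases. Both miRNAs are among the 5 nearest to miR-148a by pattern, so their likeness to it was part of how they were named.

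The minor arm was relatively lower in 33 of 48 hairpins for 29 over 26 °C and in 32 for 32 over 29 °C, with medians of -0.10 and -0.12 on the log2 scale. The values of miR-148a had 18 and 4 hairpins below them.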
